A study of Mus musculus with 568 samples.

Results

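The genes described here are 10 members of 2 families of structural proteins, 6 contractile genes (Acta1, Acta2, Actc1, Tagln, Cnn1 and Tnnt3) and 4 keratin genes (Krt8, Krt18, Krt7 and Krt42). They were chosen by their single-cell read counts over sorted populations and per cell, in which several of them set groups of germ cells apart, among the 15718 genes of the single-cell table. Values from those cells are therefore given as a description without a test, while the bulk libraries are tested. The genes were also read in the bulk groups, and they were chosen with earlier results of these data known. How many of them were called in bulk is therefore a description and not independent support. All 10 genes are among the 16335 genes of the bulk table, and all 10 passed its filter on low values, a mean normalized count above 10 over 16 libraries.

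The study followed the X chromosomes of mouse germ cells made in culture. All samples came from 1 female hybrid embryonic stem cell (ESC) line (129S1/SvImJ crossed with CAST/EiJ) named XRep. The line carries a truncated Tsix on the musculus X, doxycycline-inducible Prdm1, Prdm14 and Tfap2c transgenes, a GFP reporter on the musculus X (XGFP) and a tdTomato reporter on the castaneus X (XTomato). The truncation makes the musculus X the one to be silenced, so in PGCLCs (defined below) a lost XGFP signal is read as a silenced musculus X. For the single cells described below, the paper found the reporter too insensitive to mark some cells with a reactivated X. A low XGFP level there does not by itself mark a silenced X. Bulk RNA came from unsorted ESCs, from unsorted epiblast-like cells (EpiLCs) and from primordial germ cell-like cells (PGCLCs) at day 5 of their doxycycline-driven induction. The PGCLCs were sorted as SSEA1+, CD61+ and XTomato+ and split into XGFP+ and XGFP- cells, with 4 libraries in each of the 4 groups. For the single cells, sorted PGCLCs were aggregated for 6 days with somatic cells of the gonads of female mouse embryos, taken with the mesonephros (a reconstituted ovary, or rOvary), and XTomato+ cells were sorted 1 to a well. Cells from XGFP+ PGCLCs that were still XGFP+ are called XGFP+ constitutive. Cells from XGFP- PGCLCs were sorted by their level of XGFP and are called XGFPhigh, XGFPintermediate and XGFPlow.

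Actins polymerise into the thin filaments along which myosin pulls. Acta1 encodes the actin of skeletal muscle, Acta2 that of smooth muscle and Actc1 that of the heart. Tagln (transgelin) and Cnn1 (calponin) bind actin filaments in smooth muscle, and Tnnt3 is the troponin T of fast skeletal muscle. Many contractile genes are switched on by the serum response factor SRF, which binds a DNA motif named the CArG box, with MRTF coactivators that sense free actin. Keratins form the intermediate filaments of epithelia as pairs of a type II and a type I chain. Krt8 (type II) and Krt18 (type I) are the pair of simple epithelia and the first keratins of the embryo, Krt7 is a type II keratin of ducts and glands, and Krt42 is a type I keratin.

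Coordinates follow GENCODE vM21 on mm10. Acta1 lies at chr8:123891769-123894751, Acta2 at chr19:34241090-34255590 and Actc1 at chr2:114047282-114053548, each on its own chromosome. Tagln (chr9:45929619-45936058) and Cnn1 (chr9:22099216-22109630) share a chromosome, and Tnnt3 lies at chr7:142498836-142516009. Krt8 (chr15:101996698-102004482) and Krt18 (chr15:102028180-102032027) are neighbours in opposite orientation, with 23.7 kb between them. Krt7 (chr15:101411043-101430313) is in the same keratin cluster, and Krt42 (chr11:100262882-100269871) is in the type I cluster of another chromosome. None of the 10 is X-linked. Exons of Tagln, Krt8 and Krt7 overlap an annotated gene on the other strand. The bulk kit kept the strand, whereas the single-cell kit did not, so single-cell reads of those 3 genes and of their antisense partners cannot be told apart. The 3 actin genes have near-identical coding sequences and Krt8 has 1 named pseudogene, so a part of their reads may be assigned to a copy.

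Promoter sequences were in the RefSeq table (GRCm38.p6, 250 bases before to 50 bases after the annotated start) for 8 of the 10 genes, not for Tagln and Tnnt3. The CArG box was searched as CCWWWWWWGG without mismatch, where W is A or T. An exact CArG box was found in 2 of these 8, Acta1 and Actc1, both actins, and in 1.63% of all 32851 promoters of this length. It starts 73 bases before the start of Acta1 and 47 bases before that of Actc1. The letters TATAAA were in 4 of the 8 (Acta1, Actc1, Krt8 and Krt42) and in 13.6% of all promoters, and GGGCGG was in Acta1 and Krt7 and in 35.7% of all promoters, each counted on both strands. The 3 actin promoters are printed because Acta2 and Actc1 were called in the comparison of the 2 PGCLC groups described further on, and because Acta1, which was not called there, holds the other CArG box. They cover the 160 bases before the RefSeq start, 5′ to 3′, with CArG boxes and TATAAA in capitals. By the GENCODE coordinates above, the Acta2 and Actc1 pieces lie inside their genes, whose GENCODE starts are further upstream. All distances given here are from the RefSeq start. The TATAAA of Actc1 lies after that start and is not in the piece. The absence of a match says only that these letters, without mismatch, are not in the window. Stretches with a mismatch, such as ccctatatgg in the Acta2 piece, were not counted.
Acta1 (chr8:123894776-123894935, strand -): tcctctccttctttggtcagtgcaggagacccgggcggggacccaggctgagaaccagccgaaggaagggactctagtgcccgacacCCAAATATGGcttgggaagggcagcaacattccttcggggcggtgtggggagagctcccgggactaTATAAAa
Acta2 (chr19:34255374-34255533, strand -): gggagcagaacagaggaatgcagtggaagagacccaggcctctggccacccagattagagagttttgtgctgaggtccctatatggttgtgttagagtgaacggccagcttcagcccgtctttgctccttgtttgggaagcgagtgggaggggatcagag
Actc1 (chr2:114052876-114053035, strand -): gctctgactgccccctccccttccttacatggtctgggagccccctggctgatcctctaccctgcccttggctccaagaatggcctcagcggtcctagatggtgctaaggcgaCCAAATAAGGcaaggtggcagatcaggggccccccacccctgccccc

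The bulk libraries held 29778299 to 46533858 reads on genes. Levels are read counts divided by the DESeq2 size factor of the library, and differences are on the log2(normalized count + 1) scale with their standard error (SE). A gene was called at a Benjamini-Hochberg adjusted p (FDR) below 0.001 by limma over all 16281 genes tested. Labels number the libraries of a group and do not name the clone, so the tests measure only the spread between these libraries, which may be technical. The methods speak of different clones with technical replicates of each, in which case the 4 libraries of a group are not 4 independent samples and the FDRs may be too small. In bulk RNA, fewer cells of a type and less RNA per cell cannot be told apart. Of 12 germ cell markers, 9 rose and 2 fell from EpiLCs to XGFP+ PGCLCs, where 27.8% of all genes rose and 29.5% fell. From EpiLCs to XGFP- PGCLCs, 8 rose and 3 fell, where 29.9% of all genes rose and 31.9% fell. The list includes the 3 genes also given as transgenes. Its summed normalized count was 70810 to 76260 in ESCs, 67320 to 73080 in XGFP+ and 68770 to 74070 in XGFP- PGCLCs, so the sum did not set PGCLCs apart from ESCs. Skeletal and cardiac muscle markers were low in every bulk group, with 3 of 10 in the table and a summed normalized count between 11.9 and 79.8.

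All contractile genes but Tnnt3 rose from ESCs to EpiLCs. Of the 10 genes, 8 were called between EpiLCs and ESCs, 7 higher and 1 lower, where 47.8% of all genes were called (24.9% higher and 22.9% lower). The libraries of the groups did not overlap for 8 of the 10, where 60.7% of all genes did not overlap. Tagln had normalized counts of 773, 1329, 979.6 and 1662 in the 4 EpiLC libraries and 11.2, 13.8, 5.26 and 3.39 in ESCs, a 140.7-fold higher mean (log2 difference 7.08 ± 0.40, limma FDR 1.8e-11). Cnn1 had 511, 596, 596 and 799.9 in EpiLCs against 12.3, 10.9, 23.1 and 20.4 in ESCs (37.5-fold, FDR 6.0e-09 by limma). No EpiLC library of either gene came near an ESC library. Acta1, at 76.8, 96.9, 127.2 and 197 against 24.7, 18.8, 9.46 and 11.3, was 7.75-fold higher (limma FDR 3.5e-05).

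Acta2 had no read in any of the 4 ESC libraries and 35.6, 73.2, 28.8 and 98.7 in EpiLCs. With 3 reads over the ESC group as the limit that a count of 0 allows, a mean normalized count of 0.803, Acta2 was at least 73.6-fold higher in EpiLCs. Actc1 had 1 read in all ESC libraries together and 17.4, 19.8, 15.9 and 42.5 in EpiLCs, and the ratio of reads scaled to the libraries was 87.9 (95% counting interval 15.4 to 3507). Both genes were called (limma FDR 2.0e-10 and 9.2e-09). Tnnt3, with 0 to 1.98 in EpiLCs and 0 to 2.26 in ESCs, was the one contractile gene at or near 0 in both groups and was not called.

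The 4 keratins did not move together in this step. Krt18 rose from 255, 246, 159.8 and 147 in ESCs to 1204, 1578, 1458 and 2234 in EpiLCs (8.01-fold, limma FDR 1.1e-09). Its partner Krt8 had 2531, 1681, 2569 and 2029 in ESCs and 1119, 2349.6, 1800.3 and 4299.5 in EpiLCs, with overlapping ranges, and was not called (log2 difference -0.03 ± 0.40, limma FDR 0.95). Per kb of exon, the mean level of Krt8 was 1125 against 140.5 for Krt18 in ESCs, and 1222 against 1126 in EpiLCs, so that the levels of the pair were close in EpiLCs but not in ESCs. Krt42 went the other way, from 550.05, 413, 791 and 717 in ESCs to 14.3, 14.8, 10.9 and 7.90 in EpiLCs, a 51.6-fold lower mean (FDR 1.3e-13 by limma). Krt7 was 3.19-fold higher, with 97.4, 87.02, 85.4 and 96.8 against 31.4, 63.2, 14.7 and 5.66 (limma FDR 0.00032). That call was lost at FDR 0.0046 when EpiLCs and ESCs were fitted alone, and without any one of 3 of the 8 libraries (FDR up to 0.0015).

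**Figure D1:**
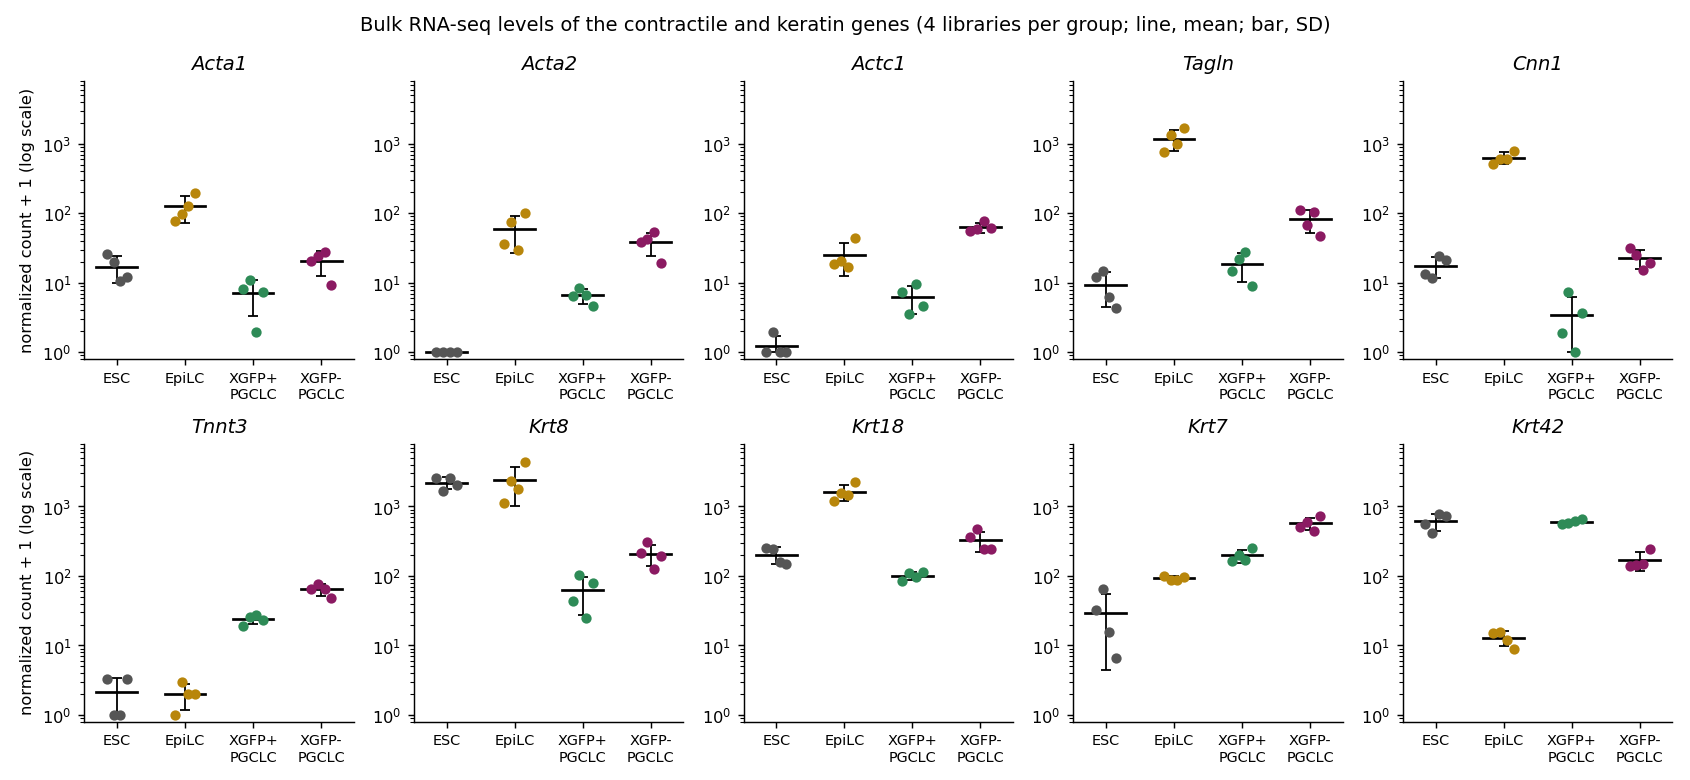
Normalized counts plus 1 on a log axis for the 10 genes in the 4 bulk groups, where each point is 1 of 4 libraries, the line is the mean and the bar the SD. Acta1, Acta2, Tagln and Cnn1 are highest in EpiLCs, Actc1 and Tnnt3 in XGFP- PGCLCs, and Krt42 is lowest in EpiLCs.

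From EpiLCs to XGFP+ PGCLCs, 9 of the 10 genes were called, 2 higher and 7 lower, where 57.3% of all genes were called (27.8% higher and 29.5% lower). All 10 were free of overlap between the groups, as were 69.9% of all genes. Among contractile genes 5 of 6 fell. Cnn1 went to 0.907, 6.26, 0 and 2.69 (254-fold lower mean, limma FDR 1.4e-11) and Tagln to 13.6, 21.3, 26.8 and 8.06 (68-fold lower, FDR 1.3e-10). Acta1 (7.25, 10.01, 0.957 and 6.27), Acta2 (5.44, 7.51, 5.74 and 3.58) and Actc1 (6.35, 2.50, 8.61 and 3.58) were 20.3-, 10.6- and 4.54-fold lower. In the XGFP+ PGCLC libraries all 3 actins were thus between 0.957 and 10.01 normalized counts. Tnnt3 rose to 18.1, 25.03, 26.8 and 22.4, 23.3-fold above EpiLCs (FDR 2.9e-07 by limma), and did not overlap with either earlier stage.

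The keratin pair fell as well. Krt8 dropped to 42.6, 102.6, 23.9 and 77.02 (38.9-fold, limma FDR 7.9e-10) and Krt18 to 83.4, 108.9, 94.8 and 113.7 (16.1-fold, FDR 1.7e-11), and per kb Krt8 was now below Krt18 (31.4 against 69.7). Krt42 returned to 554, 576, 613 and 660.1, 50.1-fold above EpiLCs (limma FDR 1.2e-13). ESCs, at 550.05, 413, 791 and 717, spanned that level (XGFP+ minus ESC log2 difference 0.00036, SE 0.22, FDR 1.00 by limma). Krt7 had 164, 197, 169 and 255, above all EpiLC libraries, but was not called (log2 difference 1.07 ± 0.44, limma FDR 0.033). Fitted on these 2 groups alone, its FDR was 5.1e-05.

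Most contractile and keratin genes were higher in XGFP- than in XGFP+ PGCLCs, whereas Krt42 was lower. Between these sorted groups 7 of the 10 genes were called, 6 higher in XGFP- cells and 1 lower, where 23.8% of all genes were called (11.3% higher and 12.5% lower). The libraries of the groups did not overlap for 9 of the 10 genes, where 45.7% of all genes did not overlap. The median log2 difference was 2.35 over the 6 contractile genes and 1.59 over the 4 keratins, beside 0.013 over all genes tested.

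Actc1 had 53.7, 57.9, 76.9 and 59.8 in XGFP- PGCLCs against 6.35, 2.50, 8.61 and 3.58 in XGFP+ PGCLCs, an 11.8-fold higher mean (log2 difference 3.43 ± 0.38, limma FDR 7.2e-07). Acta2 had 38.1, 41.7, 51.9 and 18.6 against 5.44, 7.51, 5.74 and 3.58 (6.75-fold, 2.50 ± 0.38, FDR 3.3e-05 by limma). For both genes the lowest XGFP- library stood above the highest XGFP+ library. Cnn1 had 30.3, 24.4, 14.4 and 18.6 against 0.907, 6.26, 0 and 2.69 (8.9-fold, limma FDR 1.8e-05). Tagln had 110.1, 67.1, 101.95 and 46.4 against 13.6, 21.3, 26.8 and 8.06 (4.67-fold, limma FDR 0.00019), and its FDR rose to 0.001 or 0.0011 without either of 2 of the 8 libraries.

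Acta1 had 19.9, 23.4, 26.9 and 8.25 in the XGFP- group against 7.25, 10.01, 0.957 and 6.27 in the XGFP+ group. Its ranges overlapped through 1 library of each group, and it was not called (log2 difference 1.67 ± 0.48, limma FDR 0.0081). Tnnt3 had 64.99, 76.2, 63.5 and 47.4 against 18.1, 25.03, 26.8 and 22.4 without overlap and was not called either (log2 difference 1.40 ± 0.43, FDR 0.011 by limma). The count models called it, at an FDR of 0.00031 by edgeR and 4.4e-06 by DESeq2. Its XGFP- level was 63.7-fold that of EpiLCs.

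Krt18 had 357, 467, 246 and 241 in XGFP- PGCLCs against 83.4, 108.9, 94.8 and 113.7 in XGFP+ PGCLCs (3.27-fold, log2 difference 1.66 ± 0.23, limma FDR 9.6e-06). Krt8 had 214, 304, 126.96 and 193 against 42.6, 102.6, 23.9 and 77.02 (3.40-fold, 1.88 ± 0.40, FDR 0.00074 by limma). The 2 groups did not overlap for either partner, but the call on Krt8 was lost without any one of 5 of the 8 libraries (FDR up to 0.0039) and with edgeR (FDR 0.0033). Krt7 had 512, 591, 450.1 and 721 against 164, 197, 169 and 255, again with no overlap, and was not called by limma (log2 difference 1.53 ± 0.44, FDR 0.0073), whereas edgeR gave an FDR of 0.00025. Krt42 was the one gene lower in XGFP- cells, at 136.9, 144.3, 148 and 244 against 554, 576, 613 and 660.1 (3.57-fold lower mean, log2 difference -1.87 ± 0.22, limma FDR 1.7e-06).

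**Figure D2:**
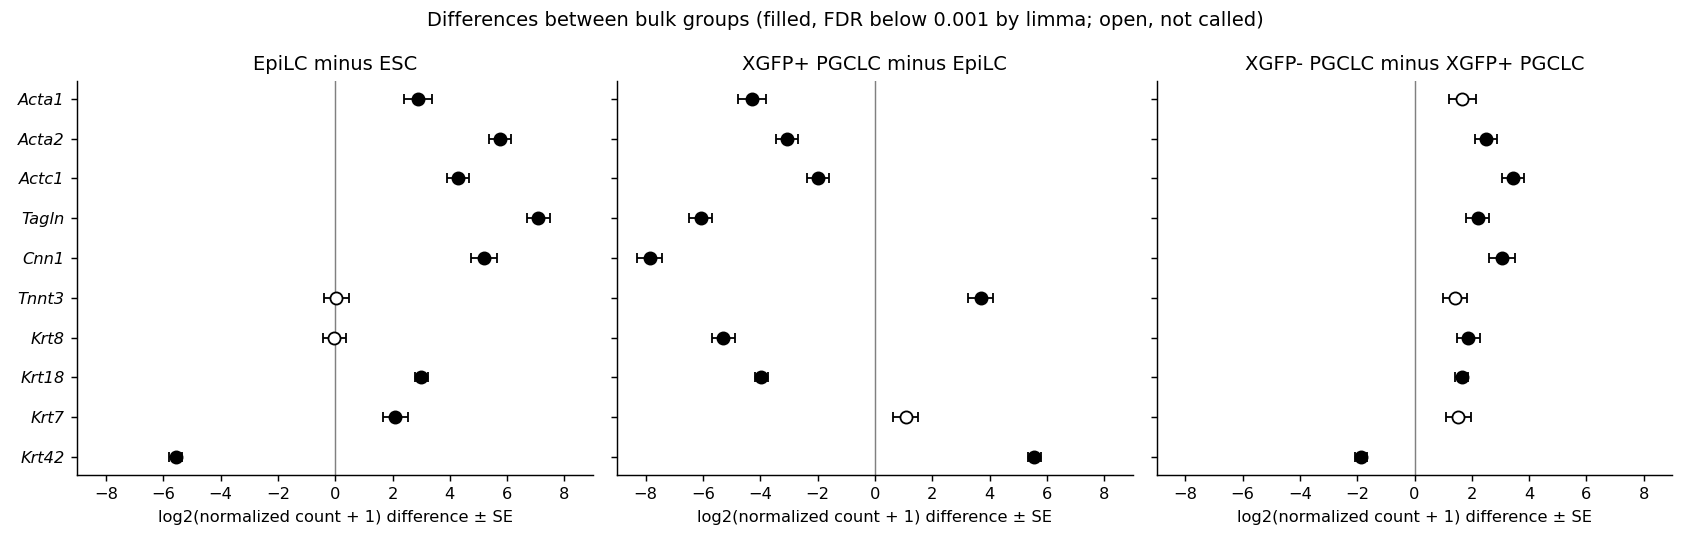
Difference in log2(normalized count + 1) with its SE for the 10 genes in 3 comparisons, 4 libraries against 4 in each, where filled points were called by limma at an FDR below 0.001. Cnn1 shows the largest fall from EpiLCs to XGFP+ PGCLCs (-7.85), and Krt42 has the opposite sign to the contractile genes other than Tnnt3 in each panel.

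Against EpiLCs, XGFP- PGCLCs had 8 of the 10 genes called, 3 higher and 5 lower, where 61.9% of all genes were called (29.9% higher and 31.9% lower). The groups did not overlap for 9 of the 10, where 73.5% of all genes did not overlap. Acta2 (log2 difference -0.56 ± 0.38, limma FDR 0.19) overlapped with EpiLCs. Actc1 was 2.60-fold higher than in EpiLCs without overlap but missed the call (limma FDR 0.0019). Its highest EpiLC library, at 42.5, stood apart from the other 3, and without it the FDR was 0.00039. Tagln (14.6-fold), Cnn1 (28.6-fold), Acta1 (6.34-fold), Krt8 (11.4-fold) and Krt18 (4.93-fold) were lower than in EpiLCs. Krt7 (6.21-fold) and Krt42 (14.1-fold) were higher.

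The comparisons with ESCs share their libraries with those above, and 7 of 10 genes were called for each PGCLC group. For XGFP+ PGCLCs 49.9% of all genes were called (25% higher and 24.9% lower), and for XGFP- PGCLCs 59.4% (29.8% higher and 29.6% lower). In each case 7 of the 10 genes did not overlap with ESCs, where 62.4% and 70.7% of all genes did not. XGFP+ PGCLCs were above ESCs for Acta2, Actc1, Tnnt3 and Krt7 and below them for Cnn1, Krt8 and Krt18. The Krt18 difference (log2 -0.97 ± 0.23, limma FDR 0.00091) was not called without any one of 6 of the 8 libraries. XGFP- PGCLCs were above ESCs for Acta2, Actc1, Tagln, Tnnt3 and Krt7 and below them for Krt8 and Krt42. Acta1 and Cnn1 were back near the ESC level in XGFP- PGCLCs (log2 differences 0.25 ± 0.48 and 0.39 ± 0.44, limma FDR 0.65 and 0.43). By mean level the order was EpiLC, XGFP-, ESC and XGFP+ for Acta1, Cnn1 and Krt18, with XGFP- and ESC libraries overlapping in all 3 and ESC and XGFP+ libraries overlapping for Acta1. For Acta2 and Tagln it was EpiLC, XGFP-, XGFP+ and ESC, with overlap between EpiLC and XGFP- for Acta2 and between XGFP+ and ESC for Tagln. For Krt7 it was XGFP-, XGFP+, EpiLC and ESC with no overlap between neighbours, although neither XGFP+ PGCLCs against EpiLCs (limma FDR 0.033) nor XGFP- against XGFP+ PGCLCs (limma FDR 0.0073) was called.

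The wider SRF and actin programme was read from lists that hold none of the 10 genes. Of 26 tested SRF and actin cytoskeleton genes, 17 rose and 5 fell from ESC to EpiLC (median log2 difference 0.76, beside 0.0088 over all genes). Of all genes, 24.9% rose and 22.9% fell in that step. The rises in the list were led by Myl9 (7.67), a myosin light chain, and Thbs1 (6.19), a secreted matrix protein. From EpiLC to XGFP+ PGCLC, 19 fell and 4 rose (median -1.27, beside -0.0042), where 29.5% of all genes fell and 27.8% rose. The largest falls were those of Thbs1 (-6.88) and Ccn1 (-4.56), and the largest rise that of Tagln3 (1.84), a relative of Tagln in nerve cells. Between XGFP- and XGFP+ PGCLCs, 7 were higher in XGFP- cells and 4 lower (median 0.30), where 11.3% of all genes were higher and 12.5% lower. In the list Ccn1 (1.68) and Myl9 (1.36) were highest and Fhl1 (-1.59) and Tagln2 (-0.75) lowest. Of 3 tested regulators, 2 rose and 0 fell from ESC to EpiLC, Srf among those that rose (1.71). From EpiLC to XGFP+ PGCLC, Srf fell (-1.30), whereas 2 of the 3 rose (median 0.51). Between the PGCLC groups Mrtfb was called (0.49), while Srf and Mrtfa were not.

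Sarcomere genes other than the 10 were called in both directions. Of 16 tested sarcomere genes, 2 rose and 4 fell from XGFP+ to XGFP- PGCLCs (median -0.33), where 11.3% of all genes rose and 12.5% fell. Actn3 was up (1.36), and Actn2 (-1.91) and Myh3 (-1.67) were down. Of 21 epithelial junction and filament genes, 4 were higher and 3 lower in XGFP- cells (median 0.10), beside the same 11.3% and 12.5% of all genes. The 2 largest rises were those of Nes (1.42) and Evpl (1.32), and the 2 largest falls those of Jup (-0.71) and Plec (-0.65). From EpiLC to XGFP+ PGCLC, 10 of the 21 fell and 5 rose, where 29.5% of all genes fell and 27.8% rose. Nes (-3.58) and Vim (-3.12), 2 other intermediate filaments, were lowest and Dsp (1.88), the desmosomal anchor of keratins, was highest. Of 4 tested smooth muscle markers, none was called higher in XGFP- PGCLCs and 1 was called lower, against XGFP+ PGCLCs by limma.

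In the rOvary, 462 of 518 sorted wells were kept. Of these, 88 (19.05%) were XGFP+ constitutive and 125 (27.1%) XGFPhigh cells, while XGFPintermediate cells made up 27.7% and XGFPlow cells 26.2%. The labels name no separate cultures, so each population is 1 sample, no test was made, and intervals cover counting error only. Median reads on genes per cell were 354149 in XGFP+ constitutive cells and 636623 to 645474 in the other 3 populations. All XGFP+ constitutive cells were sequenced in lane 2, with 45 kept cells of the other populations, while the remaining cells were in lane 3. Every index number of lane 2 was also used in lane 3, no 2 kept cells had identical counts, and the 10 empty wells held no read of any member. A gene is called found in a cell at 10 CPM or more, where CPM is the gene's reads relative to all reads on genes in the cell.

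No member was detected in most cells of any rOvary population. A count of 0 in a well need not mean absence. Krt18 was found in 7 of 24 single ESCs, although every ESC bulk library held it. The median CPM was 0 for every member in every rOvary population, and 179 of the 462 cells had none of the 10 found, whereas 155 had 1 and 2 cells had 6. A contractile member was found in 26 of 88 XGFP+ constitutive (29.5%), 26 of 125 XGFPhigh (20.8%), 49 XGFPintermediate (38.3%) and 48 XGFPlow cells (39.7%). A keratin was found in 63.6%, 53.6%, 29.7% and 34.7% of the cells in the same order. The contractile share was thus lowest in XGFPhigh cells and the keratin share lowest in XGFPintermediate cells. Thinned to 100000 reads a cell, with a gene found at 1 read or more, the contractile shares were 30.7%, 22.4%, 38.3% and 37.2%, in the same order. In lane 2 alone, they were 21.4% of 14 XGFPhigh, 37.5% of 16 XGFPintermediate and 26.7% of 15 XGFPlow cells. The keratin shares there were 50%, 43.75% and 20%, so that in lane 2 the keratin share was lowest in XGFPlow and not in XGFPintermediate cells.

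Krt42 and Acta2 had the widest gaps between populations in percentage points. Acta2 was found in 21 XGFPintermediate (16.4%, 95% Clopper-Pearson interval 10.5 to 23.98%) and 18 XGFPlow cells (14.9%), but in 3 of 88 XGFP+ constitutive (3.41%) and 1 of 125 XGFPhigh cells (0.8%, 0.0203 to 4.38%). Krt42 had the reverse pattern, found in 28 of 88 XGFP+ constitutive (31.8%) and 41 of 125 XGFPhigh cells (32.8%, 24.7 to 41.8%), against 6 XGFPintermediate (4.69%, 1.74 to 9.92%) and 13 XGFPlow cells (10.7%). In both genes XGFP+ constitutive and XGFPhigh cells lay on one side and XGFPintermediate and XGFPlow cells on the other. The median share of musculus reads over X-linked genes with allelic counts was 0.477 in XGFP+ constitutive, 0.473 in XGFPhigh, 0.338 in XGFPintermediate and 0.299 in XGFPlow cells, so it split the populations the same way. Within a population no member followed that share closely, with Spearman's rho between -0.29 and 0.19 over the 10 genes and 4 populations. For Actc1 in XGFPlow cells no rho could be computed, because Actc1 did not vary over the 88 cells with a share. The 4 XGFPlow cells in which Actc1 was found were thus all without one. Lane 2 held Krt42 in 6 of 14 XGFPhigh, 3 of 16 XGFPintermediate and 0 of 15 XGFPlow cells, the last allowing a share of up to 20%. Acta2 was found there in 0 of 14 XGFPhigh (up to 21.4%), 2 of 16 XGFPintermediate and 1 of 15 XGFPlow cells. Among 24 single ESCs, Krt42 was found in 15 of 24 and Acta2 in 1 of 24, the latter from 1 read.

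**Figure D3:**
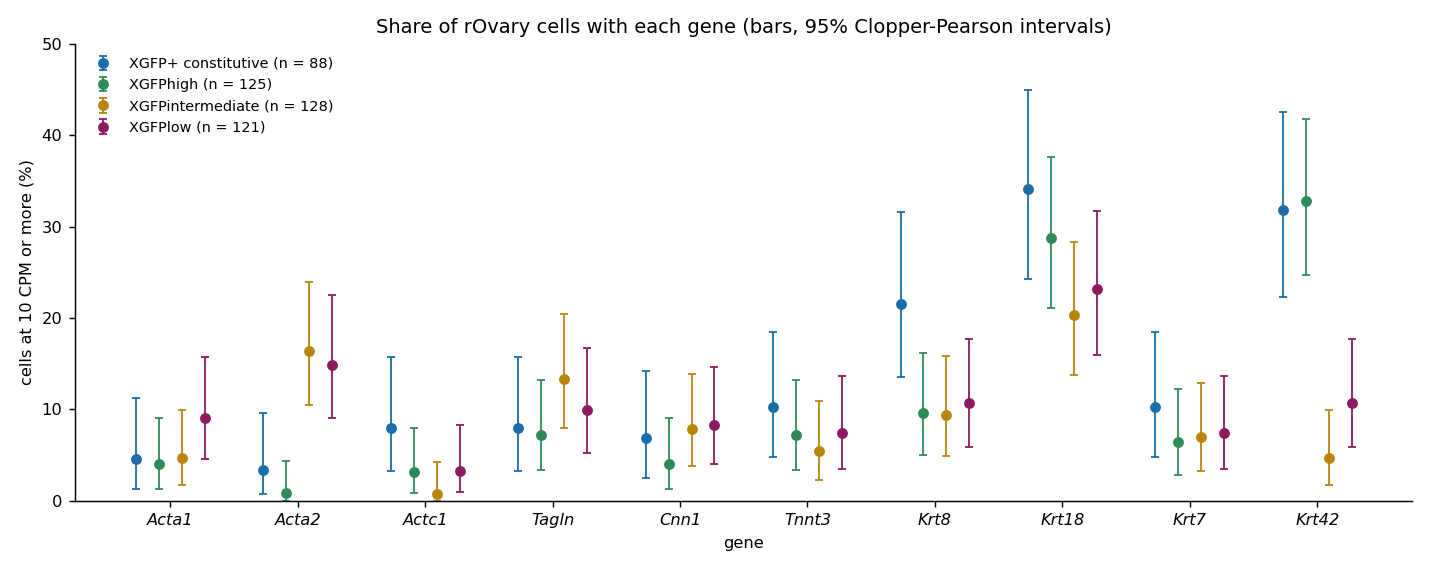
Share of kept rOvary cells in which each gene was found at 10 CPM or more, by sorted population (colours, with cell numbers), with 95% Clopper-Pearson intervals. Acta2 is highest in XGFPintermediate (16.4%) and XGFPlow (14.9%) cells, and Krt42 in XGFPhigh (32.8%) and XGFP+ constitutive (31.8%) cells.

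Acta1 stood out through few cells. It was found in 4.55%, 4% and 4.69% of XGFP+ constitutive, XGFPhigh and XGFPintermediate cells and in 11 XGFPlow cells (9.09%, 4.63 to 15.7%), but 8 of the 12 rOvary cells at 100 CPM or more were XGFPlow. These 11 and 8 XGFPlow cells were all in lane 3, and Acta1 was found in 0 of 15 XGFPlow cells of lane 2, which allows up to 20%. Against XGFP+ constitutive cells, all in lane 2, population and lane cannot be told apart. The 3 highest XGFPlow cells had 1311, 1069 and 877 CPM, from 1116, 735 and 814 reads, and the highest alone gave 33.4% of all Acta1 reads of the XGFPlow population. Of the 12 cells, 11 were above the limit on the germ cell gene Dazl described next, and 4 also had Tagln found. Actc1 was found in 16 of 462 cells, and its 3 cells at 100 CPM or more (up to 389.7 CPM) were XGFPlow cells of lane 3. Tagln was found in 7.95%, 7.2%, 13.3% and 9.92% of the 4 populations, Cnn1 in 6.82%, 4%, 7.81% and 8.26%, and Tnnt3 in 10.2%, 7.2%, 5.47% and 7.44%. For each of these 3 genes all 4 intervals overlapped.

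Krt18 was the keratin found most often, in 120 of 462 cells, and was highest in XGFP+ constitutive cells (34.1%), then XGFPhigh (28.8%), XGFPlow (23.1%) and XGFPintermediate cells (20.3%), with overlapping intervals between neighbours. Krt8 was found in 21.6% of XGFP+ constitutive cells (13.5 to 31.6%) and in 9.38% to 10.7% of the other populations. In lane 2, Krt18 was found in 1 of 14 XGFPhigh, 5 of 16 XGFPintermediate and 2 of 15 XGFPlow cells, so its order differed there. Krt8 was found there in 2 of 14, 2 of 16 and 1 of 15. Lane and population can be told apart for XGFP+ constitutive cells, all in lane 2, only through these few cells. All 4 cells with Krt7 at 100 CPM or more (up to 1087 CPM) were XGFP+ constitutive. In single ESCs the pair was unequal, with Krt8 found in 24 of 24 cells (median 92.9 CPM) and Krt18 in 7 of 24, as in the ESC bulk libraries.

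**Figure D4:**
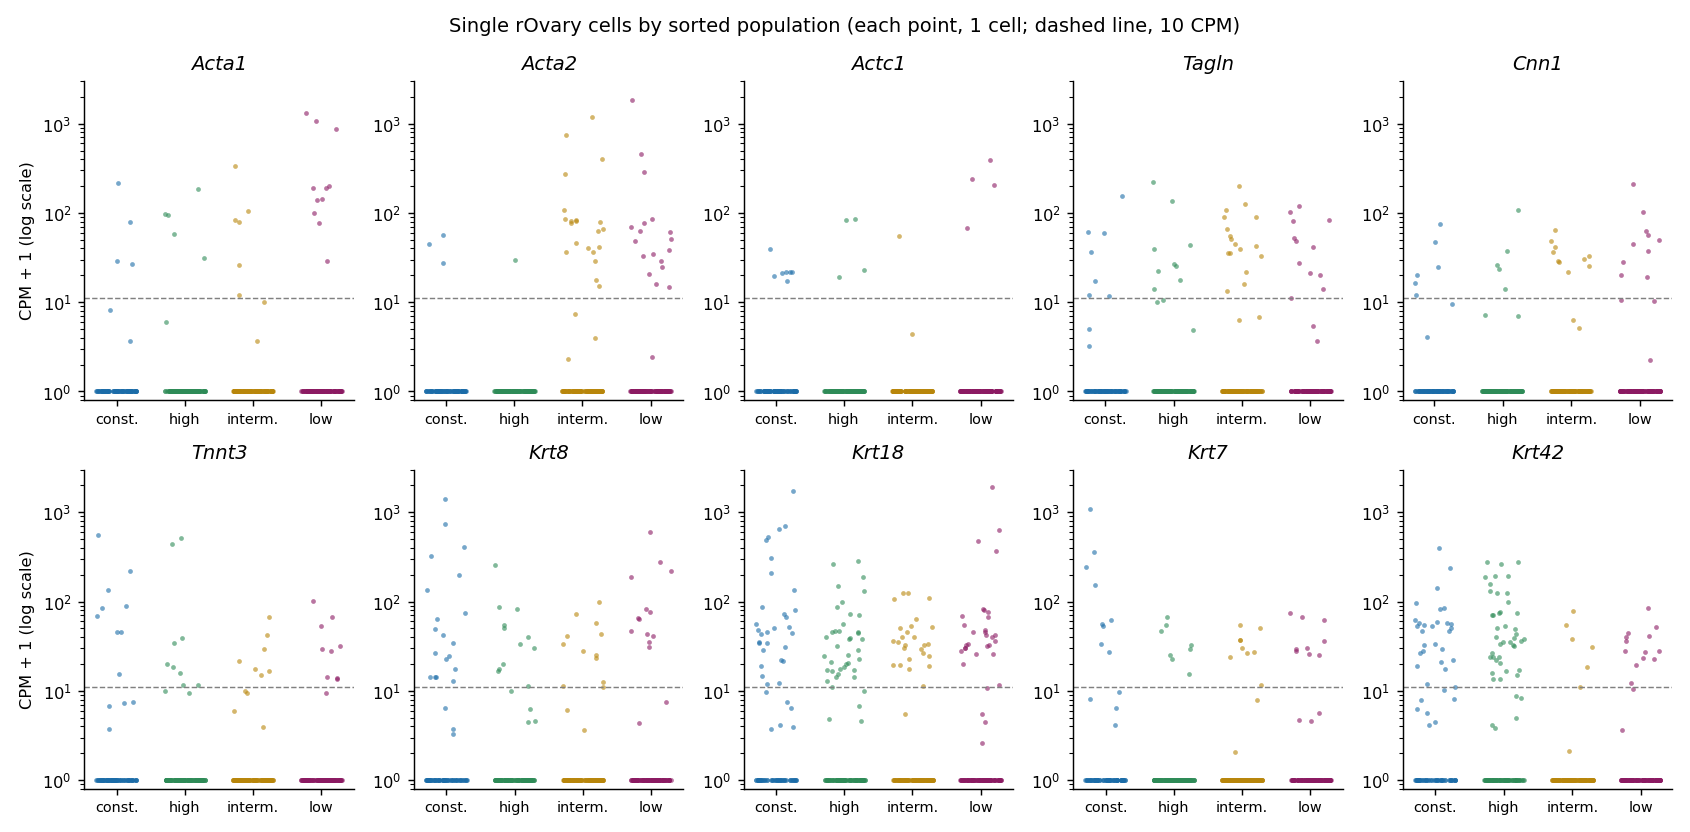
CPM plus 1 on a log axis for the 10 genes in 462 kept rOvary cells by sorted population, where each point is 1 cell and the dashed line marks 10 CPM. Most cells lie at 0 for every gene, and the highest points are an XGFPlow cell for Krt18 (1921 CPM) and an XGFPlow cell for Acta2 (1820 CPM).

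The study kept germ cells by a limit on Dazl, a germ cell RNA-binding protein, for which its text names a log2 scale in one place and no base in another. It also required enough allelic reads, with a minimum share from either genotype, and that filter was not applied here. The Dazl limit used here was a value above 1 on the natural-log scale per 10000 reads. Of the 462 cells, 401 were above it and 61 at or below it, of which 30 were XGFPlow, 12 XGFPintermediate, 7 XGFPhigh and 12 XGFP+ constitutive cells. A contractile member was found in 32.8% of the 61 and 32.2% of the 401 cells, and a keratin in 42.6% and 44.1%. On the log2 scale 55 cells were at or below the limit, with a contractile member in 30.9% and a keratin in 41.8% of them. These set shares were close, while single keratins differed in opposite directions, with overlapping intervals. In the 61 and the 401 cells, Krt8 was found in 19.7% and 11%, Krt18 in 32.8% and 24.9%, and Krt7 in 11.5% and 6.98%. Krt42 was found in 9.84% and 20.4%. The mean levels, to which few cells gave much, were not close. Mean CPM in the 61 and the 401 cells was 76.3 and 5.77 for Acta2, 120.2 and 15.1 for Krt18, 62.4 and 6.85 for Krt8, and 32.3 and 2.70 for Krt7. Acta1 (6.87 and 13.4) and Krt42 (2.70 and 13.9) were higher in the cells above the filter.

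Some of the cells with the highest values held markers of other cell types. Of 12 interstitial and mesenchymal markers, all 12 were found in some cell at or below the Dazl filter, where their sum ran from 0 to 41682 CPM. In cells above the filter 9 of the 12 were found, Tcf21 was at 0, and the sum ran from 0 to 619 CPM, with a median of 0. At least 3 markers of 1 of 8 lists of other cell types were found in 20 of the 61 cells and 21 of the 401 cells. Of the 8 cells with Acta2 at 100 CPM or more, 5 held such markers, and the same 5 were at or below the Dazl filter, including the highest at 1819.9 CPM. Among cells with the keratin at 100 CPM or more, such markers were held by 4 of 11 for Krt8, 6 of 21 for Krt18, 2 of 4 for Krt7 and 1 of 13 for Krt42, and by 0 of 12 for Acta1. The highest Krt18 cell did not hold 3 markers of any of the lists, and it was at or below the Dazl filter. At or below the Dazl filter were 8 of 11, 8 of 21, 4 of 4 and 0 of 13 of the keratin cells and 1 of the 12 Acta1 cells. In a setting chosen after seeing the data, without the cells that held such markers, a contractile member was found in 27.5%, 19.3%, 37.8% and 39.6% and a keratin in 61.2%, 52.1%, 32.4% and 35.1% of the populations, in the order used above. Of 8 smooth muscle markers, 7 were in the single-cell table. Their sum ran from 0 to 581 CPM in the 61 cells, where Actg2 was at 0, and from 0 to 294 CPM in the 401 cells. The wells were sorted for XTomato, and the methods name CD1/ICR mice, not the reporter line, as the source of the somatic cells. Whether that gate kept out all somatic cells was not tested. The part of other cell types in the high values was not tested either.

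Krt8 and Krt18 were found together more than any other pair. Of 56 cells with Krt8, 35 (62.5%) also had Krt18, and these were 29.2% of the 120 cells with Krt18. All 11 cells with Krt8 at 100 CPM or more had Krt18 at 100 CPM or more. Pearson's r of natural-log normalized values over 462 cells was 0.81 and Spearman's rho 0.37. In the 380 cells above the Dazl filter and without 3 markers of another type, r was 0.42 and rho 0.28, with 21 of 40 Krt8 cells having Krt18. The 4 cells with Krt7 at 100 CPM or more had both. Krt42 did not follow them (r with Krt8 -0.001 and with Krt18 0.03), although 10 of the 13 cells with Krt42 at 100 CPM or more also had Krt18 found. The contractile genes were rarely together, since 5 of 35 cells with one of them at 100 CPM or more had a second at that level, and 4 of the 35 also had a keratin there. The values of a cell share its library and depth, and no p is given.

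**Figure D5:**
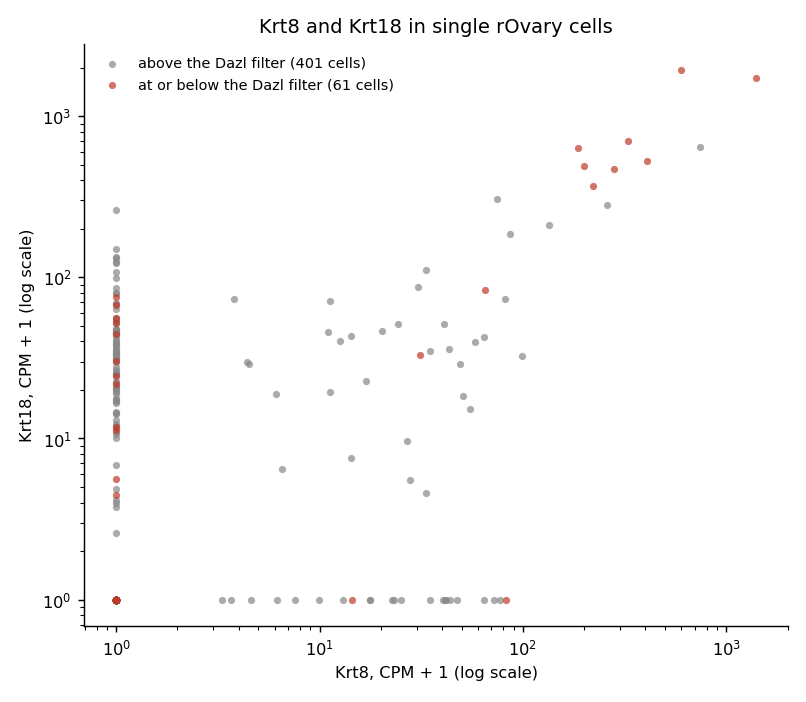
Krt8 against Krt18 as CPM plus 1 on log axes in 462 rOvary cells, coloured by the Dazl filter, where each point is 1 cell. The cells with Krt8 at 100 CPM or more all have high Krt18, and 8 of these 11 are at or below the filter.

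Of 10590 other genes at 10 CPM or more in at least 10% of the cells, those most like Krt18 over 462 cells were Prss8 (Pearson's r 0.63), a membrane protease, Cldn4 (0.53), a tight junction claudin, Grb7 (0.52), Cldn10 (0.51) and Jun (0.49). Those most like Acta2 were Cdc42ep5 (0.56), Emp3 (0.56), the myosin light chain Myl9 (0.55), Odz4 (0.55) and Lgals7 (0.53). In the 380 cells above the Dazl filter and without markers of another type, r was 0.21 for Prss8, 0.14 for Myl9, and between -0.08 and 0.22 over the 10 genes, so the likeness was weaker without the other 82 cells.

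The 401 cells above the Dazl filter were also clustered with the 10 genes removed from the variable genes. The clusters are known by number and by their leading genes, and values within them are a description. Cluster 0 (33.7% of the cells, led by Lefty1, Mt1 and Apoe) held 70 XGFPhigh and 60 XGFP+ constitutive cells, and had the largest share with a keratin (73.3%), with Krt42 in 44.4% and Krt18 in 38.5%. Cluster 1 (26.4% of the cells, led by Cyp26a1, Tmem18 and Stra8, a gene of meiotic entry) held 55 XGFPintermediate and 46 XGFPlow cells. It had the largest share with a contractile member (50%), with Acta2 in 26.4%, Acta1 in 10.4% and Krt42 in 2.83%. Acta2 was found in 1.48%, 3.45% and 9.26% of clusters 0, 2 and 3, and in 0 of the 48 cells of cluster 4, which allows a share of up to 6.25%.

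Cluster 3 (54 cells, led by Taf7l, Tex101 and H2-K1, with the meiotic chromosome gene Sycp3 among its 5 leading genes) had the smallest share with a keratin (5.56%). Neither Krt8 nor Krt42 was found in any of its 54 cells, which allows a share of up to 5.56%, and Krt18 was found in 5.56%. A contractile member was found in 31.5% of them, with Tagln in 11.1% and Acta2 in 9.26%. Cluster 4 (48 cells, 33 of them XGFPhigh, led by Slc7a3, Upp1 and Tmsb4x) had the smallest contractile share (12.5%). In cluster 2 (58 cells, led by Ldhb, Ifitm3 and Dppa3) Krt18, Krt7 and Krt42 were found in 24.1%, 24.1% and 20.7%.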

How the data were processed

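The 10 genes and the gene lists were chosen with earlier results of these data known. The bulk table holds a normalized signal that the authors made by dividing stranded total RNA read counts per gene by DESeq2 size factors, and whole reads were recovered from its steps (tolerance 0.01 reads). Per the submitters' processing notes, STAR, HTSeq 0.6.1, DESeq2 1.16 and the mm10 build were used. Of the bulk table, 4 columns of other samples were not used. The single-cell table, as deposited, holds whole read counts for SMART-seq wells, without molecular identifiers. The authors also deposited, as a fraction, the share of musculus reads per X-linked gene and cell.

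Differences in log2(normalized count + 1) were fitted with limma 3.58.1 (trend, all 16 libraries) in R 4.3.3 for 16281 genes with a mean above 10. Adjustment was by Benjamini-Hochberg, and calls were made at an FDR below 0.001. Same-numbered XGFP+ and XGFP- libraries deviated together, with correlations of 0.253, 0.135, 0.2 and 0.307. The labels do not say what the numbers share. Alternatives were edgeR 4.0.16, DESeq2 1.42.0, other pseudocounts, filters and scalings, a replicate block and leaving out each library. Wells with at least 4000 genes, 10000 reads and at most 5% mitochondrial reads were kept, and no doublet caller was run on the sorted wells. Clustering used Seurat 5.3.0 (2000 variable genes, 20 components, resolution 0.8). Genes other than the 10 were named by size, as the largest called rises and falls of each list and comparison among genes with a mean above 100.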

Additional observations from a re-analysis of the deposited data

Results flagged for a closer look

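In 3 of the 40 sets of 4 libraries (10 genes in 4 groups), 1 library lay apart from the other 3 by Dixon's criterion, which chance alone meets in about 1 of 20. Actc1 had a normalized count of 0.988, from 1 read, in ESC library 2 and was at 0 in the other 3. In EpiLC library 4 Actc1 was at 42.5, against 15.9 to 19.8 in the others, and without it Actc1 was called higher in XGFP- PGCLCs than in EpiLCs (limma FDR 0.00039 in place of 0.0019). Krt42 was at 244 in XGFP- PGCLC library 4, against 136.9 to 148.1 in the others, still below every XGFP+ PGCLC library.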

How the results depend on the processing

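For the 10 genes, 985 of 1056 differences under another setting kept their direction and their side of the threshold, 26 lost a call and 23 gained one, and 22 turned in sign. The turned differences were small and were not called. From ESC to EpiLC, Krt8 (log2 difference -0.03) was 0.12 with DESeq2, 0.10 with edgeR, 0.010 after quantile normalization and -0.37 to 0.28 without 1 library. Tnnt3 (0.04) was -0.20 with DESeq2, -0.19 with edgeR, -0.013 with a pseudocount of 10, -0.67 after quantile normalization and -0.24 to 0.34 without 1 library. Krt42 between XGFP+ PGCLCs and ESCs was -0.041 with DESeq2, -0.014 with edgeR, -0.00029 with a pseudocount of 10, -0.039 after quantile normalization and -0.18 to 0.13 without 1 library. Among genes with a mean above 100, fewer of the 10 were tested and fewer called (Krt18 between XGFP+ PGCLCs and ESCs was tested and missed the call at an FDR of 0.00102 by limma), with 5 from ESC to EpiLC, 5 from EpiLC to XGFP+ PGCLC, 3 between XGFP+ PGCLCs and ESCs and 4 between XGFP- PGCLCs and ESCs. With a pseudocount of 10, 4 were called between XGFP+ PGCLCs and ESCs. At an FDR below 0.05, 7914 genes were called between the PGCLC groups, against 3873 at 0.001. With the replicate number as a block, 4170 genes were called there, the same 7 of the 10 genes included, and no call on the 10 changed in any comparison. Cells with a contractile member at 100 CPM or more were 5.68%, 3.2%, 7.81% and 13.2% of XGFP+ constitutive, XGFPhigh, XGFPintermediate and XGFPlow cells, and those with a keratin 12.5%, 11.2%, 3.13% and 3.31%. In lane 2 alone, 43.75% of 16 XGFPintermediate and 20% of 15 XGFPlow cells had a keratin, and 26.7% of XGFPlow cells a contractile member. Each cell population is 1 sample, and 4 libraries of unnamed clones stand behind each bulk mean, so the spread between cultures is unknown for the cells and may be technical for the libraries.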

Other observations

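Of the keratin genes outside the 10, Krt19, Krt17 and Krt10 had the highest bulk means. Krt19, a type I keratin of simple epithelia, followed Krt18 in direction, with a mean normalized count of 26.9 ± 15.4 (SD, n = 4) in ESCs, 467 ± 275 in EpiLCs and 13.8 ± 6.02 in XGFP+ PGCLCs (log2 difference -4.92, limma FDR 3.9e-08 against EpiLCs). In XGFP- PGCLCs it had 25.3 ± 13.9 and was not called against XGFP+ PGCLCs (log2 difference 0.76, limma FDR 0.21). Krt17, a type I keratin of basal epithelia, had its highest mean in ESCs (214 ± 51.97), then EpiLCs (90.2 ± 20.3), XGFP+ PGCLCs (31.01 ± 8.14) and XGFP- PGCLCs (17.8 ± 5.63). It fell from EpiLCs to XGFP+ PGCLCs (log2 difference -1.52, limma FDR 3.1e-05), the step in which Krt42 rose. Krt10, a keratin of differentiated epidermis, stayed between 15 and 26.8 in the 4 groups and was not called in any of the 6 comparisons by limma at an FDR below 0.001.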
